A study of Mus musculus with 8 samples.

Results

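The fatty acid elongases and desaturases were read as 10 genes of the 35275 counted in 24 h fasted liver: the elongases Elovl1, Elovl2, Elovl3, Elovl4, Elovl5, Elovl6 and Elovl7 and the desaturases Fads1, Fads2 and Scd1. They were chosen by name as the enzymes that set the chain length and the double bonds of long-chain fatty acids. Of the 10 genes, 9 had enough reads to be tested and Elovl4 did not. The livers came from 4 male Pcx L-/- mice and 4 male littermate controls, labelled as strain C57BL/6, all aged 9 weeks and fasted for 24 h, with 1 library per mouse. In Pcx L-/- mice Albumin-Cre removes a floxed exon of pyruvate carboxylase, the mitochondrial enzyme that makes oxaloacetate from pyruvate. The floxed line was derived from C57BL/6NTac animals. The controls, which the sample labels call WT, are described as carrying the same floxed alleles. Albumin-Cre acts in hepatocytes, so the other cells of the liver keep the gene. The question was how loss of the enzyme changes the transcripts of fasted liver.

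Long-chain acyl-CoAs are lengthened in the endoplasmic reticulum by a cycle of condensation with malonyl-CoA, reduction, dehydration and a last reduction. The ELOVL proteins catalyze the condensation and thereby choose which acyl chain enters the cycle, whereas the other steps are shared. Desaturases insert double bonds with electrons passed on by cytochrome b5. In liver, SCD1 and ELOVL6 act on the saturated and monounsaturated chains left by fatty acid synthase. FADS2, ELOVL5, FADS1 and ELOVL2 act in turn on the essential polyunsaturated fatty acids and lead to arachidonate and docosahexaenoate.

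Elovl1, Elovl6 and Elovl7 were higher in Pcx L-/- liver, and Elovl2 and Scd1 were lower. Elovl2 fell to 43.0% of its control mean, and Elovl7 rose from a few reads per library to a mean of 62.0 ± 40.5 normalized counts (SD, n = 4). Elovl3, Elovl5, Fads1 and Fads2 did not pass the test in all 8 livers. The test was edgeR's quasi-likelihood F test with Benjamini-Hochberg adjustment over 13168 genes and a threshold of 0.05 on the adjusted p. By this rule 3 of the 9 tested members were higher and 2 were lower, against 14.1% and 13.5% of all genes tested and 27.6% in either direction. Among the members called higher, Elovl7 entered the test only through the Pcx L-/- livers, since its control reads were below the filter's minimum. The number lower was 1 in 6 of the 8 analyses that omitted a liver, since the call of Scd1 was lost in them, and 4 without Pcx L-/- replicate 1, with Fads1 and Fads2 added. The values of 4 of the 9, Elovl1, Elovl2, Elovl6 and Elovl7, did not overlap between genotypes, as was the case for 27.6% of all genes tested. With 9 genes tested, these counts are not read as particular to the members. Normalized counts are reads divided by the library's effective size and rescaled to a common depth. Levels compared between genes are the deposited FPKM, which also divide by gene length.

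Reads on genes ranged from 12016242 to 20023108 per library, and normalized counts of Pcx itself were 556 to 758 in Pcx L-/- liver and 14371 to 22066 in controls. Across all genes, 1855 were higher and 1777 lower. With scaling by library size only, without the TMM factors that edgeR uses to balance composition, the median log2 fold change over all genes moved from -0.01 to 0.28 and the split became 3915 higher and 870 lower. The TMM factors were 0.833 to 0.942 in controls and 0.970 to 1.165 in Pcx L-/- livers, so the members' changes below are relative to the balance of all genes. The hepatocyte markers Alb, Apoa1, Ttr, Tat, Cps1, Fga and Serpina1a had control means of 34816 normalized counts (Serpina1a) or more. All 7 had lower means in Pcx L-/- liver, with a median log2 fold change of -0.59. Past the threshold were 2 in edgeR and 5 with DESeq2. Their summed FPKM, which is not balanced for composition, was 33256 to 41990 in Pcx L-/- liver and 46339 to 50244 in controls. In whole liver, fewer cells of a type and less RNA per cell cannot be told apart, and the part of this shift in the members' results was not tested. Of the 8 markers each of macrophages, endothelial cells and stellate cells, 0 passed the threshold in edgeR in any of these lists (0, 3 and 0 at an unadjusted p under 0.05, and 0, 1 and 0 with DESeq2), with medians of 0.04, -0.15 and 0.03.

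Pcx L-/- replicate 1 stood apart in ways that touch the members. Its red blood cell markers were the highest of all livers, with 27471 normalized counts of Hba-a1, the alpha chain of hemoglobin, against 2322 to 5939 in the other Pcx L-/- livers and 1497 to 5952 in controls. Of the 6 red blood cell markers 5 were tested and 0 passed in edgeR (also 0 with DESeq2 and 0 at an unadjusted p under 0.05), with summed FPKM of 559 to 5338 in Pcx L-/- liver and 317 to 1231 in controls. The labels also number the mice, which fall into a lower and a higher series. Replicate 1 was the only Pcx L-/- mouse of the lower series, beside 2 controls, whereas the higher series held 2 controls and 3 Pcx L-/- mice. What these numbers stand for is not stated. For 6 of the 9 tested members, Elovl2, Elovl6, Elovl7, Fads1, Fads2 and Scd1, this liver was the Pcx L-/- liver nearest to the control mean. The part of blood or of the mouse series in the results was not tested, and values without this liver are given beside the members and lists whose calls or counts change with it.

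Promoter sequences of 4 of the 5 altered members are shown because these genes moved apart, with Elovl1, Elovl6 and Elovl7 higher and Elovl2 lower. They are RefSeq windows of build GRCm38.p6 from 250 bases before to 50 bases after the start site, written 5′ to 3′ in the direction of the gene. Of the 10 members 7 matched an entry. No entry was matched for Elovl3, Fads1 and Scd1. Capitals mark every match, on either strand, to 6 motifs: the GC box GGGCGG, the CCAAT box CCAAT, the E-box CACGTG, the nuclear receptor element AGGTCA, the sterol response element TCACNCCAC and the C/EBP-ATF element TGATGNAAT.
Elovl1, chr4:118427843-118428142, plus strand: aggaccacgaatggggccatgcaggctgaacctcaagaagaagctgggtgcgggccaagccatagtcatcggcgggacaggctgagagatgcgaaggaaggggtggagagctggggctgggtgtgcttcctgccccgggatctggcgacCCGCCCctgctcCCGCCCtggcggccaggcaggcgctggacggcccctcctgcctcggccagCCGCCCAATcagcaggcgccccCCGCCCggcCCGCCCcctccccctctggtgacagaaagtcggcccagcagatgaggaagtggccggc
Elovl6, chr3:129532136-129532435, plus strand: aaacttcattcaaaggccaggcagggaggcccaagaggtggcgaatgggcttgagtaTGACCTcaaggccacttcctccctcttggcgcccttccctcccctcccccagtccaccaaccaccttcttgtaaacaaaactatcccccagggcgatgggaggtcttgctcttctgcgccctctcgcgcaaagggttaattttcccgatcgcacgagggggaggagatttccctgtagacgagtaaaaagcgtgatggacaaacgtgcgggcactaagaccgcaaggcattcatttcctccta
Elovl7, chr13:108214154-108214453, plus strand: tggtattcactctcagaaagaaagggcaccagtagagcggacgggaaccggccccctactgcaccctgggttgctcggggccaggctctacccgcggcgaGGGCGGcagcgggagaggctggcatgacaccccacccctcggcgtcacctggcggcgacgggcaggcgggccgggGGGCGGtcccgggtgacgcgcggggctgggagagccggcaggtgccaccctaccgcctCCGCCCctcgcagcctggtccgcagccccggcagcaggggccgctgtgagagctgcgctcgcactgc
Elovl2, chr13:41220354-41220653, minus strand: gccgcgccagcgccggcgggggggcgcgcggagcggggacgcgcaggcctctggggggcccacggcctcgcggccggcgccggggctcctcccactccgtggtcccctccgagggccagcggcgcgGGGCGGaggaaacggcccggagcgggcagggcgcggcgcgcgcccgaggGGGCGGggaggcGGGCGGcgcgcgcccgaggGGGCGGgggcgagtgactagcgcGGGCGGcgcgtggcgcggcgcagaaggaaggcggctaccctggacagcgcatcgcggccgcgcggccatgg

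The Elovl1 window held 5 GC boxes between 101 and 8 bases upstream of the start, of which the one at 39 overlaps a CCAAT box at 35. The Elovl7 window held 3 GC boxes and the Elovl2 window 5. A GC box was present in 35.7% of the 32851 windows in the table and a CCAAT box in 37.4%. The G and C content of these windows was 70.7%, 74.0% and 84.7%, against a median of 52.7% over all windows. The Elovl6 window, with 55.7% G and C, differed in its letters and held a single match, AGGTCA on the opposite strand 193 bases upstream, an element found in 16.3% of windows. None of the 4 windows held CACGTG (7.15% of windows), TCACNCCAC (1.24%) or TGATGNAAT (0.965%). Elovl1 and Elovl7, which rose, and Elovl2, which fell, thus all held GC boxes, and a match is one of letters only.

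**Figure D1:**
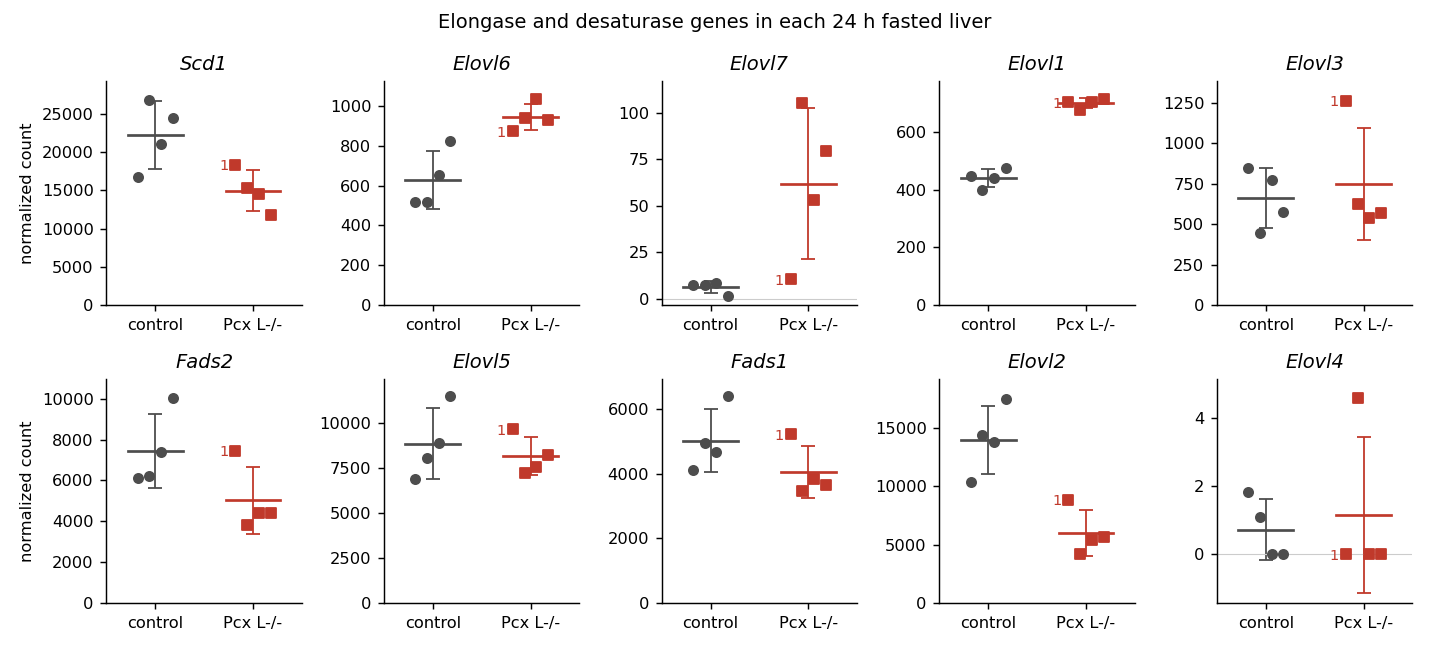
Normalized counts (vertical axes, linear, with a separate scale per gene) of the 10 genes in each liver. Circles are the 4 controls, squares the 4 Pcx L-/- livers in replicate order from left to right, horizontal lines are means and bars are SD. The squares marked 1 are Pcx L-/- replicate 1, which lies nearest the controls for 6 of the 9 tested genes.

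The enzymes of saturated and monounsaturated chains moved in both directions. Scd1, the desaturase that makes oleate and palmitoleate, is transcribed from the minus strand of chromosome 19 (44394455 to 44407879, GRCm38). Its normalized counts were 16709, 26838, 20973 and 24436 in control replicates 1 to 4 and 18356, 15317, 14451 and 11731 in Pcx L-/- replicates 1 to 4. Of the Pcx L-/- livers 3 lay below every control, and replicate 1 lay above the lowest control. The mean fell from 22239 ± 4403 to 14964 ± 2729 (SD, n = 4), or by 0.57 on the log2 scale (SE 0.19, edgeR adjusted p = 0.0412, 95% interval -1.03 to -0.12). The call was lost in 11 of 19 alternative analyses (adjusted p 0.0532 to 0.185), including those that omitted control replicate 2, 3 or 4 and those that omitted Pcx L-/- replicate 2, 3 or 4. The direction held in all 19, with log2 fold changes of -0.69 to -0.47 when a liver was omitted, -0.29 with library size only and -0.28 with limma on FPKM.

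Elovl6, which turns palmitate into stearate, lies on the plus strand of chromosome 3 (129532355 to 129638495). The controls had 516, 518, 655 and 825 normalized counts and the Pcx L-/- livers 873, 939, 1033 and 929. Every Pcx L-/- liver was above every control, with replicate 1 the closest to them. The mean rose from 628 ± 146 to 944 ± 66.5 (log2 fold change 0.59, SE 0.15, edgeR adjusted p = 0.0144). Leaving out any 1 liver kept the call (adjusted p 0.00286 to 0.0467), whereas among mice of the higher number series the log2 fold change was 0.40 and did not pass (adjusted p = 0.0557). Thus the genes of 2 enzymes of palmitate metabolism moved in opposite directions, and the FPKM ratio of Elovl6 to Scd1 was 0.016 to 0.027 in controls and 0.039 to 0.064 in Pcx L-/- livers.

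Elovl7, an elongase of saturated and monounsaturated long chains, lies on the plus strand of chromosome 13 (108214404 to 108285683). The controls held 8, 7, 8 and 1 reads, or 1.70 to 8.60 normalized counts. The Pcx L-/- livers held 11, 138, 68 and 80 reads, or 10.4, 105, 52.9 and 79.4 normalized counts. Each control was below the filter's minimum count of 10 reads, and each Pcx L-/- liver was above it. Elovl7 thus entered the test only through the group where it was high, which limits what its adjusted p shows. Replicate 1 was just above the highest control and the other 3 stood well apart, so the ranges did not overlap although values within Pcx L-/- livers spread widely. The mean rose from 6.29 ± 3.11 to 62.0 ± 40.5 (log2 fold change 3.20, SE 0.64, 95% interval 1.64 to 4.76, edgeR adjusted p = 0.00501). Without Pcx L-/- replicate 1 the log2 fold change was 3.54 (adjusted p = 6.01e-05), and with limma on log2(FPKM + 1), a scale that compresses low values, it was 0.68 (adjusted p = 0.0159). With the mouse series as a covariate in edgeR it was 2.59 (adjusted p = 0.0111). Even after the rise Elovl7 remained at a mean of 0.769 FPKM, below each of the other tested members, and 8 reads or fewer per control library limit the precision of its control mean.

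Elovl1, which makes very-long-chain saturated and monounsaturated acyl-CoA used in sphingolipids, lies on the plus strand of chromosome 4 (118428093 to 118432953). Its values were the tightest of the family, with 448, 399, 440 and 475 normalized counts in controls and 703, 675, 704 and 715 in Pcx L-/- livers. No value overlapped, and here replicate 1 sat among the other Pcx L-/- livers. The mean rose from 440 ± 31.7 to 699 ± 17.0 (log2 fold change 0.67, SE 0.09, edgeR adjusted p = 0.00109), and the rise passed in all 19 alternatives, with log2 fold changes of 0.62 to 0.96. A stretch of 53 exon bases is shared with Cdc20 in the GENCODE M21 annotation, which is 1.94% of the exon bases of Elovl1.

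Elovl3, another elongase of saturated and monounsaturated very long chains, lies on the plus strand of chromosome 19 (46131897 to 46135694). In mouse liver it is known as a gene with a daily rhythm and higher levels in males. The controls had 848, 446, 775 and 579 normalized counts and the Pcx L-/- livers 1264, 623, 536 and 571. Replicate 1 was the highest of all 8 livers, and the other 3 Pcx L-/- livers lay inside the control range. The log2 fold change was 0.17 (SE 0.28, edgeR adjusted p = 0.691, 95% interval -0.52 to 0.86), and it turned to -0.20 without Pcx L-/- replicate 1 (adjusted p = 0.46).

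Genes that share these known properties of Elovl3 were read from lists written with earlier results of these data known. Their counts stand beside 14.1% higher and 13.5% lower among all genes tested. They are not read as a test of either property. Of 14 tested clock genes 2 were higher and 5 lower, with a median log2 fold change of -0.33, and the number lower was 3 without Pcx L-/- replicate 4 and 7 without replicate 1. Nr1d1, a repressor of the clock, rose by 1.13 (SE 0.21, adjusted p = 0.00348), and Arntl, which encodes the activator BMAL1, rose by 1.35 (SE 0.27, adjusted p = 0.00468). Hlf, an output factor of the clock, fell by 0.84 (adjusted p = 0.00187). All 11 tested male-biased liver genes were lower (median -1.36, 8 to 11 with 1 liver left out), among them Ugt2b1 (-1.99), C6 (-1.81) and Slco1a1 (-1.36). Of 5 tested female-biased genes 1 was higher and 3 were lower, with a median of -1.20. Elovl3 itself did not pass the test, and its difference from these lists was not tested.

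Elovl4, which makes the ultra-long chains of retina, skin and brain, was barely detected. Controls held 3 reads in all and Pcx L-/- livers 6, all of these in replicate 2. The difference in mean log2(normalized count + 1) was -0.02 (exact two-sided permutation test, p = 1, with 0.0286 the smallest p that 4 against 4 livers allow). No difference was detectable at this depth.

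The enzymes of polyunsaturated chains are given in the order in which they act. Fads2 on the minus strand of chromosome 19 (10062765 to 10101746) encodes the desaturase that starts the conversion of linoleate and alpha-linolenate. It had 6122, 6212, 7413 and 10028 normalized counts in controls and 7440, 3811, 4414 and 4410 in Pcx L-/- livers. Replicate 1 lay at the control mean of 7444 and the other 3 lay below every control. The log2 fold change was -0.57 (SE 0.23, edgeR adjusted p = 0.0874, 95% interval before adjustment -1.13 to -0.01). It passed without replicate 1 (-0.82, adjusted p = 0.00376), among the mice of the higher series (-1.04, adjusted p = 0.00086) and with DESeq2's Wald test (-0.58, adjusted p = 0.0494). With library size only the value was -0.30 (adjusted p = 0.193), as it was with limma on log2(FPKM + 1) (adjusted p = 0.19).

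Elovl5 on the plus strand of chromosome 9 (77917364 to 77984519) lengthens the products of FADS2. Normalized counts were 6895, 8094, 8914 and 11541 in controls and 9668, 7227, 7582 and 8225 in Pcx L-/- livers, all of the latter inside the control range. The log2 fold change was -0.12 (SE 0.17, edgeR adjusted p = 0.658, 95% interval -0.53 to 0.30). Its sign depended on the scaling (0.17 with library size only, 0.18 and 0.19 with limma on FPKM) and on control replicate 4 (0.04 without it), so no direction is given.

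Fads1 on the plus strand of chromosome 19 (10182888 to 10196877) encodes the desaturase that forms arachidonate and eicosapentaenoate. The controls had 4116, 4954, 4665 and 6398 normalized counts, and the Pcx L-/- livers 5233, 3481, 3839 and 3654. As with Fads2, replicate 1 lay inside the control range and the other 3 below it. The log2 fold change was -0.31 (SE 0.17, edgeR adjusted p = 0.206, 95% interval -0.73 to 0.11), and without replicate 1 it was -0.46 (adjusted p = 0.0301). Scaled by library size only, the value was -0.03.

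Elovl2, which carries polyunsaturated chains on towards docosahexaenoate, lies on the minus strand of chromosome 13 (41182381 to 41220405). The controls had 10352, 14396, 13786 and 17457 normalized counts and the Pcx L-/- livers 8854, 4226, 5383 and 5611. All Pcx L-/- livers were below all controls, with replicate 1 the closest to them. The mean fell from 13998 ± 2913 to 6018 ± 1985 (log2 fold change -1.22, SE 0.23, 95% interval -1.78 to -0.65, edgeR adjusted p = 0.00409). This was the largest fall among the members, and it passed in all 19 alternatives, with log2 fold changes of -1.62 to -0.95. It was -1.46 without replicate 1 (adjusted p = 0.000131).

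**Figure D2:**
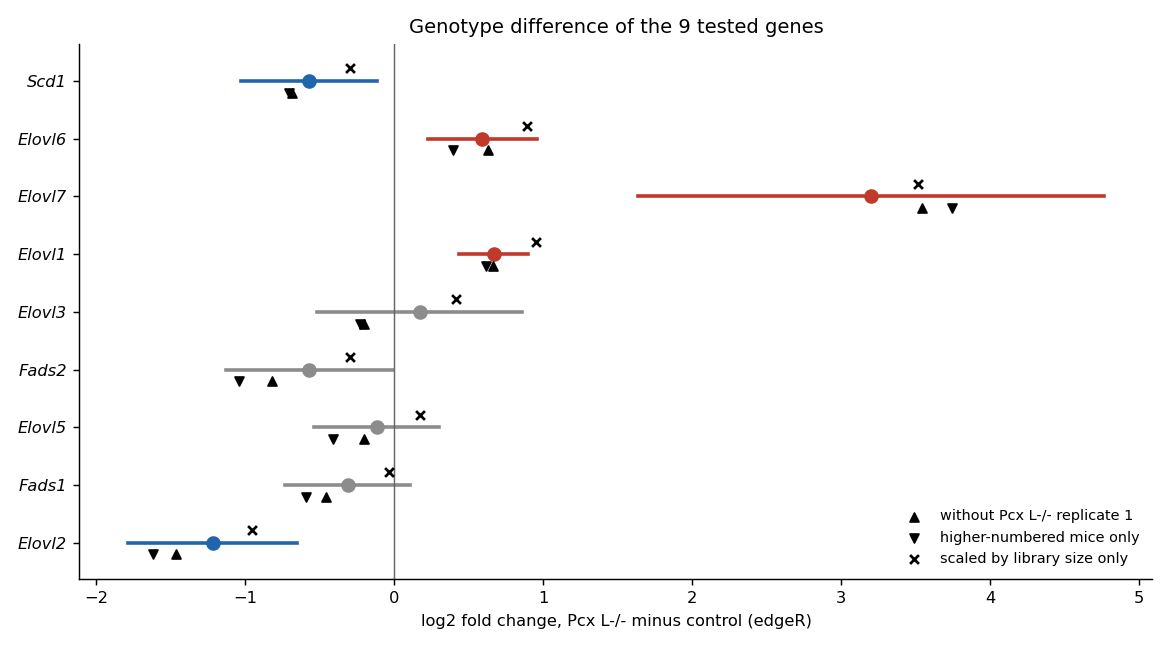
Log2 fold change of Pcx L-/- over control (horizontal axis) for the 9 tested genes, with large dots for all 8 livers and lines for 95% intervals before adjustment for multiple testing. Red genes were called higher, blue genes lower and gray genes not called at an adjusted p of 0.05. Small symbols give the value under 3 other analyses, and those for Elovl3 and Elovl5 fall on both sides of 0.

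Within each mouse series the 5 altered members had the same sign as in all livers. They were called on these same livers, so the shared sign is no separate support for the calls. In the lower series, with 2 controls and 1 Pcx L-/- liver, differences of mean log2(normalized count + 1) were 0.73 for Elovl1, 0.75 for Elovl6, 0.43 for Elovl7, -0.46 for Elovl2 and -0.21 for Scd1. In the higher series, with 2 controls and 3 Pcx L-/- livers, they were 0.61, 0.39, 3.92, -1.62 and -0.72 in the same order. The 4 members that were not called had opposite signs in the 2 series. They were 1.04 and -0.22 for Elovl3, 0.37 and -0.40 for Elovl5, 0.21 and -0.58 for Fads1, and 0.27 and -1.04 for Fads2. The values of the lower series rest on 1 Pcx L-/- liver, and the difference between series was not tested. In that liver Scd1 (18356 normalized counts) lay between the 2 controls of its series (16709 and 26838). Its Elovl7 value rests on 11 reads, against 8 and 7 in those controls.

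Levels of the 10 transcripts were set side by side per gene length. In controls the order of mean FPKM was Fads2 (261), Scd1 (245), Elovl2 (196), Elovl5 (169), Fads1 (77.2), Elovl3 (23.7), Elovl1 (13.0), Elovl6 (5.59), Elovl7 (0.0630) and Elovl4 (0.0133). The ranges of neighbors overlapped among Fads2, Scd1, Elovl2 and Elovl5 and between Elovl7 and Elovl4, and were separate elsewhere. In Pcx L-/- liver Elovl5 (190) stood above Elovl2 (101) in all 4 livers with separate ranges, whereas Elovl2 stood above Elovl5 in all 4 controls. There the ranges of Elovl3 (31.7) and Elovl1 (25.1) overlapped. The order rests on the gene lengths behind the deposited FPKM, which differ from the exon union of GENCODE M21, most of all for Fads2 (1508 against 3295 bases). With the exon union as length, an alternative added after seeing the data, Fads2 ranked 4 in controls at 119 FPKM, below Scd1 (242), Elovl2 (187) and Elovl5 (133), so the place of Fads2 is not settled. Elovl2 still stood above Elovl5 in every control and below it in every Pcx L-/- liver (ratios 1.33 to 1.58 and 0.519 to 0.813). FPKM are not balanced for composition, so orders and shares within a liver, not FPKM changes between livers, are read from them.

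Among the elongase transcripts, the summed FPKM was 335 to 467 in controls and 321 to 410 in Pcx L-/- livers, with overlap. The makeup of that sum differed between genotypes. Elovl2 took 44.6% to 51.9% of it in controls and 23.8% to 32.4% in Pcx L-/- livers. Elovl5 took 39.8% to 43.5% and 48.3% to 55.5%, respectively. The shares of Elovl1 (means 3.24% and 7.09%) and Elovl6 (1.37% and 2.93%) also did not overlap, and that of Elovl3 did (4.06% to 9.30% and 7.08% to 11.8%). The ratio of Elovl2 to Elovl5 was 1.10 to 1.30 in controls and 0.428 to 0.671 in Pcx L-/- livers, with replicate 1 the highest of the latter. Because shares of a sum depend on each other, a fall of Elovl2 raises the share of the rest, and no test was run on them.

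**Figure D3:**
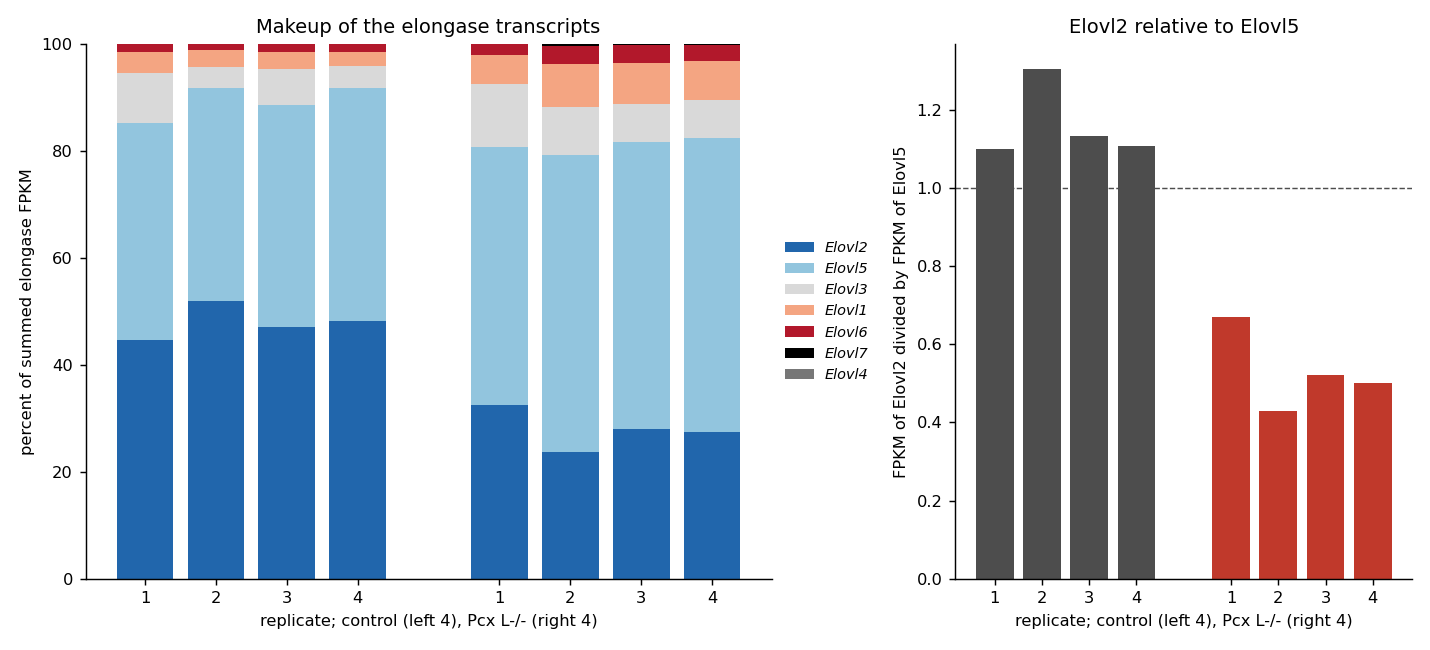
Left, percent of the summed elongase FPKM held by each elongase gene in each liver (stacked bars, vertical axis from 0 to 100%). Right, FPKM of Elovl2 divided by that of Elovl5 in each liver, with a dashed line at equal levels. The 4 controls lie at 1.10 or above and the 4 Pcx L-/- livers at 0.671 or below.

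The desaturases kept a more even balance. Scd1 held 42.0% ± 5.56 of their summed FPKM in controls and 41.2% ± 4.72 in Pcx L-/- livers, and Fads2 held 44.8% ± 5.27 and 43.3% ± 4.59 (SD, n = 4). Fads1 held 12.7% to 13.7% in controls and 14.8% to 16.5% in Pcx L-/- livers, without overlap. With the exon union as length, the control shares were 57.9% for Scd1 and 28.8% for Fads2, and those of Fads1 still did not overlap (12.2% to 14.2% and 14.4% to 16.9%). The ratio of Fads1 to Fads2 on deposited FPKM overlapped between genotypes (0.275 to 0.348 and 0.307 to 0.399).

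Other genes of the pathway were read from lists written for this purpose, with earlier results of these data known. The counts of these lists stand beside 14.1% higher and 13.5% lower among all genes tested. The remaining enzymes of the elongation cycle gave 1 higher and 1 lower of 6 tested, with a median log2 fold change of 0.08. Hacd1, a dehydratase of the cycle, rose from 105 ± 14.5 to 204 ± 21.3 normalized counts (log2 fold change 0.95, SE 0.14, adjusted p = 0.00139). Tecr, the reductase of the last step, fell from 2409 ± 151 to 1453 ± 352 (-0.73, SE 0.15, adjusted p = 0.00654). Both passed in all 19 alternatives, and the list had 2 higher without control replicate 4 and 2 lower without Pcx L-/- replicate 1. Of the other desaturases, 5 were tested and 0 passed in edgeR, with 1 at an unadjusted p under 0.05 and a median of -0.04. The smallest adjusted p was that of Degs1, the ceramide desaturase (0.25, adjusted p = 0.104), which passed without Pcx L-/- replicate 1 and with library size only. DESeq2's Wald test also called 0 of these 5, and limma on log2(FPKM + 1) called 1. Scd2 was expressed at a mean of 1.68 FPKM in controls, far below Scd1, and Scd3 and Scd4 had too few reads to be tested.

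Cytochrome b5 genes and their reductases, listed as electron donors of the desaturases, gave 1 higher and 2 lower of 5 tested. Of the 2 lower, Cyb5b is not a form of the endoplasmic reticulum, where the desaturases act. Cyb5r1, a cytochrome b5 reductase, rose from 129 ± 17.6 to 1252 ± 342 normalized counts (log2 fold change 3.27, SE 0.22, adjusted p = 2.73e-05). Cyb5r3, the reductase that passes electrons to cytochrome b5 in the endoplasmic reticulum, fell from 4464 ± 96.7 to 2378 ± 511 (-0.91, SE 0.15, adjusted p = 0.00189). Cyb5b, the mitochondrial outer membrane form of cytochrome b5, fell by 0.42 (adjusted p = 0.0153), but not past the threshold without Pcx L-/- replicate 4 or with library size only. Cyb5a, the form of the endoplasmic reticulum, did not pass (0.25, edgeR adjusted p = 0.464). By mean FPKM, Cyb5r3 stood above Cyb5r1 in controls (93.5 and 2.85) and in Pcx L-/- livers (60.0 and 34.2).

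The supply of malonyl-CoA and palmitate gave 1 higher and 3 lower of 8 tested, with a median of -0.32. Fasn, the fatty acid synthase, fell from 1548 ± 469 to 803 ± 118 normalized counts (-0.95, SE 0.20, adjusted p = 0.00669). Acss2, which makes acetyl-CoA from acetate, fell by 0.89 (SE 0.18, adjusted p = 0.00564). Me1, the cytosolic malic enzyme that yields NADPH, rose by 0.73 (SE 0.17, adjusted p = 0.0113). These 3 calls held in all 19 alternatives, whereas that of Slc25a1, the mitochondrial citrate carrier (-0.37, adjusted p = 0.046), was lost in 13, including those that omitted control replicate 1, 2 or 3 and those that omitted Pcx L-/- replicate 2, 3 or 4. Acaca and Acacb, the acetyl-CoA carboxylases, did not pass in all 8 livers.

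Among the acyl-CoA synthetases, which activate fatty acids before elongation, 1 was higher and 3 were lower of 7 tested (median -0.08). Acsl4, which prefers arachidonate, rose from 1074 ± 303 to 3708 ± 971 normalized counts (log2 fold change 1.79, SE 0.23, adjusted p = 0.00082). Acsl1, the main long-chain form of liver, fell from 25136 ± 2244 to 12456 ± 4431 (-1.01, SE 0.22, adjusted p = 0.00672). Slc27a5 fell by 1.12 (adjusted p = 0.00279), and Slc27a2, a very-long-chain form, fell by 0.64 (adjusted p = 0.0139) but not past the threshold without Pcx L-/- replicate 3 or 4. Without control replicate 4 the list had 2 higher.

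Regulators of the elongase and desaturase genes gave 0 higher and 5 lower of 12 tested, with a median of -0.28. Srebf1, whose product SREBP-1 drives Scd1, Elovl6, Fasn and the Fads genes, fell from 1101 ± 186 to 425 ± 205 normalized counts (-1.38, SE 0.27, adjusted p = 0.00451). Insig1, which holds SREBP precursors in the endoplasmic reticulum, fell by 1.18 (SE 0.23, adjusted p = 0.00451). Srebf2, the regulator of cholesterol synthesis, fell by 0.72 (SE 0.11, adjusted p = 0.0013). These 3 calls held in all 19 alternatives. The number lower was 3 without Pcx L-/- replicate 4 and 7 without replicate 1, and the number higher was 1 without Pcx L-/- replicate 2. With edgeR 1 was higher at an unadjusted p under 0.05, DESeq2 called 0 higher, and library size only and limma on log2(FPKM + 1) each called 3 higher and 3 lower. Of the known SREBP-1 targets named here, Fasn was lower, Scd1 was lower with a call that many alternatives did not keep, Elovl6 was higher, and Fads1 and Fads2 did not pass in all 8 livers.

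Users of long-chain acyl-CoA in membrane lipids gave 3 higher and 1 lower of 11 tested, with a median of 0.00 on the log2 scale. Cers2, the ceramide synthase that takes the very-long-chain acyl-CoA made by ELOVL1, rose from 4055 ± 298 to 8058 ± 632 normalized counts (log2 fold change 0.99, SE 0.12, adjusted p = 0.000713). Agpat5, an acyltransferase of phosphatidate synthesis, rose by 1.07 (adjusted p = 0.000735), and Lpcat3, which places polyunsaturated chains in phosphatidylcholine, rose by 0.46 (adjusted p = 0.00769). These 3 passed in all 19 alternatives. Cers6, which prefers palmitoyl-CoA, fell by 0.69 (adjusted p = 0.0289), a call that was lost on omitting control replicate 3 or 4 and on omitting Pcx L-/- replicate 2, 3 or 4, which leaves 0 lower in the list.

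The peroxisomal steps that finish docosahexaenoate after ELOVL2 gave 0 higher and 3 lower of 8 tested, with a median of -0.33. Abcd2, a peroxisomal transporter of very-long-chain acyl-CoA, fell from 656 ± 211 to 220 ± 57.0 normalized counts (-1.57, SE 0.25, adjusted p = 0.00174). Acaa1b, a peroxisomal thiolase, fell by 0.76 (adjusted p = 0.00514), although reads of this gene and its close copy Acaa1a may not be fully separable. Scp2 fell by 0.65 (adjusted p = 0.0159), and not past the threshold without Pcx L-/- replicate 2, 3 or 4. Without Pcx L-/- replicate 1 the list had 5 lower. For the higher direction edgeR gave 0 at an unadjusted p under 0.05, DESeq2 called 0, and limma on log2(FPKM + 1) called 1. Elovl2 and these genes fell, but each list is small and its share called was not tested against all genes.

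**Figure D4:**
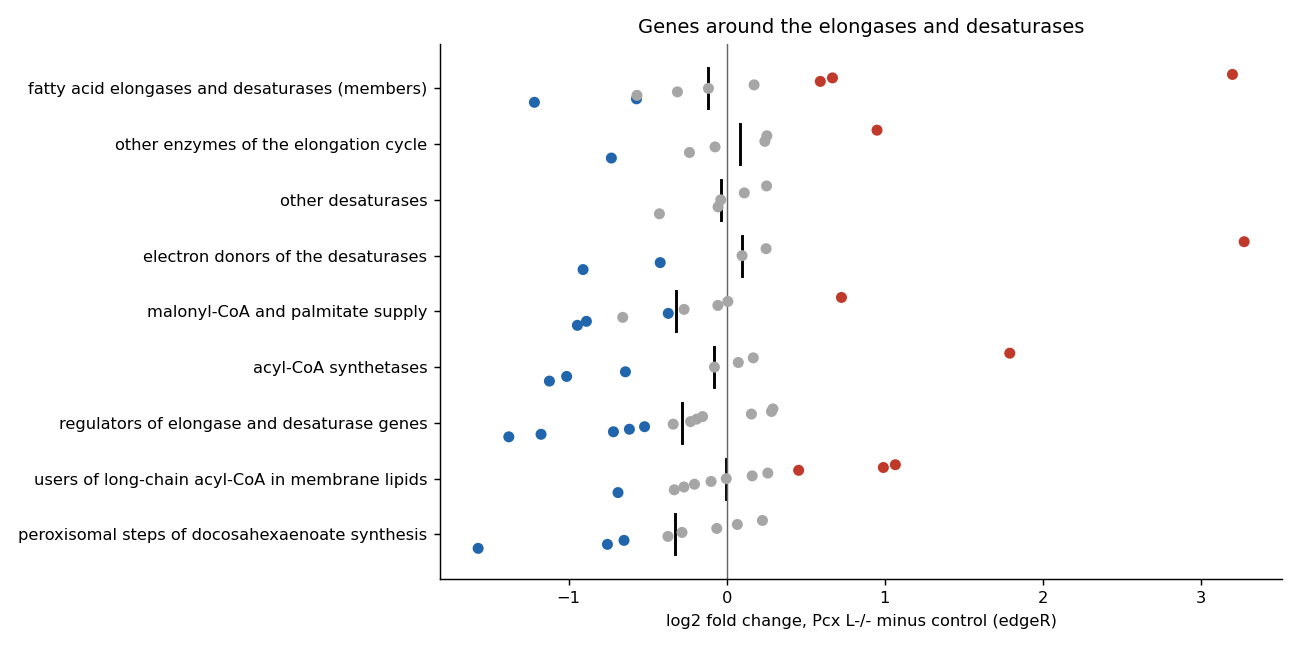
Log2 fold change of Pcx L-/- over control (horizontal axis) of each tested gene in the members and 8 related lists (rows). Red points were called higher, blue points lower and gray points not called at an adjusted p of 0.05, and vertical bars are list medians. Every row except the other desaturases holds at least 1 called gene.

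The genes whose profile over the 8 livers was most like that of each altered member were found by the smallest root mean square difference of log2(normalized count + 1), centered on each gene's mean. For Elovl7 they were Tnfrsf12a (0.470), Tnfrsf23 (0.498) and Pmm1 (0.505), against a median of 1.77 over all genes tested. For Elovl2 they were Cyp2c68 (0.151), Hmgn5 (0.161) and Acnat2 (0.164), against a median of 0.759. Elovl1 lay nearest to Slc25a39 (0.047), Mrpl24 (0.070) and Gjb2 (0.076), with a median of 0.442. Elovl6 lay nearest to Eif3c (0.104), Fam120c (0.111) and Chid1 (0.112), with a median of 0.468. Scd1 lay nearest to Casc4 (0.113), Zfp946 (0.128) and Odf2 (0.136), with a median of 0.469. The nearest profiles of Elovl7 were about as far from it as a typical gene was from Elovl1 or Scd1. None of the other members was among these nearest genes. They are listed by likeness only.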

How the data were processed

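Liver RNA of 8 mice was sequenced. The submitters' processing notes name STAR 2.5, HTSeq 0.6.1, DESeq2 and the build mm10. The deposited counts are raw reads for each Ensembl gene. The deposited FPKM equal count divided by a gene length and by the library total for 100% of 142384 values above 0 (relative tolerance 1e-06). Which annotation release and strand setting were used is not given in the sources. Genotype and replicate came from the sample labels. Symbols came from GENCODE M21 (34490 of 35275 identifiers, 97.8%).

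Counts were fitted with edgeR 4.0.16 (R 4.3.3; filterByExpr, minimum count 10 and total 15; TMM; quasi-likelihood F test on genotype alone; Benjamini-Hochberg over 13168 genes). Standard errors were approximated from log2 fold change and F statistic, and 95% intervals use 6 residual degrees of freedom. Elovl4 was compared by an exact permutation test. The steps were tested on simulated data. Alternatives were DESeq2 1.42.0 with and without apeglm 1.24.0, limma 3.58.1 on log2(FPKM + 1) and log2(FPKM + 0.1), other scalings and filters, a replicate block, mouse series as a covariate, a fit on the higher-numbered mice only (added after seeing the data), each liver left out, and, for levels, the exon union as gene length (also added after seeing the data).

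The members and gene lists were chosen with earlier results of these data known. Of each list the text names up to 3 called genes in each direction with the smallest p, or the gene with the smallest p where none was called, and for each altered member the 3 genes of nearest profile. Lists of lymphocyte, neutrophil, cholangiocyte and adipocyte markers had 3, 1, 5 and 0 genes tested, of which edgeR called 1, a cholangiocyte marker (lower), whereas limma on log2(FPKM + 1) and library size only called 0 cholangiocyte markers and the neutrophil marker S100a9 (higher). Among adipocyte markers Lep and Retn were at 0 in every library. Library totals of 12016242 to 20023108 reads limit the precision of weakly expressed genes.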

Additional observations from a re-analysis of the deposited data

Results flagged for a closer look

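The 20 groups of 4 livers (10 genes in 2 genotypes) were searched for a liver whose gap to the nearest other, divided by the range of the group, was above Dixon's 95% critical value for 4 samples. For independent and normally distributed values, chance alone marks about 1 in 20 such groups. Here 3 groups were found, which is not read as an excess, because the genes share the same livers. For Elovl3 it was Pcx L-/- replicate 1, with 1264 normalized counts against 536 to 623 in the other 3 (gap 0.881 of the range). For Fads2 it was the same liver, with 7440 against 3811 to 4414 (0.834). For Elovl4 it was Pcx L-/- replicate 2, with 4.58 normalized counts from 6 reads against 0 in the other 3 (1.0). That value is fixed whenever only 1 liver of a group holds reads. Pcx L-/- replicate 1 was also the liver with the most hemoglobin transcripts and the only Pcx L-/- mouse of the lower number series, and the part of either in its values was not tested.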

How the results depend on the processing

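Elovl1 and Elovl2 passed in the same direction in all 19 alternatives. Elovl7 passed in the 18 that could be run for it, since it was removed by a filter of 1 CPM in 4 libraries. Most of these 18 kept the genes of the main filter, which Elovl7 passed only through the Pcx L-/- livers. They are therefore no separate support for its call. The number of members higher was 2 or 3 throughout. The number lower was 1 instead of 2 with library size only, with limma on log2(FPKM + 1) and on log2(FPKM + 0.1), with the replicate block and with the mouse series as a covariate, in each case because Scd1 missed the threshold, and 4 among the higher-numbered mice. With 1 liver left out it was 1 to 4, with 4 without Pcx L-/- replicate 1. The replicate numbers did not pair the livers (correlations of same-numbered deviations 0.101, -0.131, -0.101 and -0.07), and the block gave 1481 higher and 1494 lower genes and changed no other call of a member. All genes altered, 3632, ranged from 2111 to 4537 with 1 liver left out, lowest without Pcx L-/- replicate 4 and 2298 without replicate 2. Elovl3 turned to -0.20 without Pcx L-/- replicate 1 and to -0.23 among the higher-numbered mice, and ranged from -0.202 to 0.317 with 1 liver left out. Elovl5 turned to 0.17 with library size only, 0.18 and 0.19 with limma, and 0.037 without control replicate 4, and ranged from -0.219 to 0.037 with 1 liver left out. The Elovl4 difference was 0.054 with library size only and -0.64 to 0.27 with 1 liver left out. The causes were not tested.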
